A study of Mus musculus with 4 samples.

Results

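Replication-dependent histone cluster genes, the multicopy genes that encode the core histones H2A, H2B, H3 and H4 and the linker histone H1, were examined in cells sorted from mouse tumors. Members were the rows whose symbol begins with Hist1h, Hist2h, Hist3h or Hist4h, the older names of the 4 clusters. Only 9 rows carried such a symbol, because most histone genes were listed under newer names, and another 61 rows were found through the older symbols that RefSeq gives as synonyms (H1f2 for Hist1h1c, H2bc4 for Hist1h2bc). The resulting 70 members, among 55367 gene rows, comprised 6 H1, 20 H2A, 19 H2B, 12 H3 and 13 H4 genes. Of these, 56 carry Hist1 names and lie on chromosome 13, where the processed pseudogene Hist1h2al (chr13:51202727-51203065) is far from the rest of the cluster, 10 lie in Hist2 on chromosome 3, 3 in Hist3 on chromosome 11 and 1 in Hist4 on chromosome 6 of GRCm38/mm10, and 3 are annotated as pseudogenes.

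The 4 libraries were made from polyadenylated RNA of CD45.2+CD8+ cells, sorted, per the labels, from B16-F10 tumors, which grow from a melanoma line of the mouse. CD45.2 marks leukocytes and CD8 marks cytotoxic T cells. Per their titles 2 libraries were WT and 2 were KO, in a series on the transcription factor Satb1 in tumor-infiltrating lymphocytes, and nothing states whether they came from separate animals, so p-values measure only the spread between these libraries. The series text speaks of mice with floxed Satb1 and either ThPOK-cre or E8I-cre, which act in the CD4 and CD8 lineages, but the labels do not tie a driver, sex or age to any library.

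Gene rows summed to between 4017875 (WT 1) and 5382915 (KO 2) counts, so that 3 counts corresponded to between 0.557 and 0.747 counts-per-million (CPM) of these sums. Satb1 was higher in the libraries titled KO, with 7 and 5 counts in WT and 131 and 55 in KO (log2 fold change 3.36, SE 0.79, edgeR adjusted p = 0.115, DESeq2 adjusted p = 0.00781). As no driver is tied to a library, these counts do not tell whether the gene was deleted. Directions below are those of the libraries' names, and no genotype was established from the counts. Xist, expressed in females, had 435 and 216 counts in WT and 0 and 3 in KO, and the Y-linked gene Ddx3y had 0 and 0 against 188 and 81, so that sex and label cannot be told apart. The 8 T cell markers summed to 61.5 and 100.4 CPM in WT and to 1576 and 1077 CPM in KO, far under the 8 macrophage or monocyte markers at 27592 and 38476 CPM in WT and 21973 and 27535 CPM in KO. Of the T cell markers 7 of 8 were past the threshold and higher in KO, where 0.574% of all genes tested were past it in either direction, but only 2 of 8 without WT 1 (Cd8a and Lck, edgeR). Of the macrophage or monocyte markers 7 of 8 had a fitted change below 0 and 0 were past the threshold in edgeR. At an unadjusted p under 0.05 there were 2 (edgeR), against 13.7% of all genes, and 1, C1qa, was past the threshold in DESeq2, against 3.51%. The ratio of their group means in CPM was 0.749, and ran from 0.643 without WT 1 to 0.897 without WT 2. With TMM scaling the sums of these macrophage or monocyte markers did not overlap. Melanoma markers summed to 188 and 230 CPM in WT and 2213 and 1232 CPM in KO. The ratio of group means was 8.23, and ran from 5.89 without KO 1 to 10.6 without KO 2. In edgeR 1 of 6 melanoma markers was past the threshold, and in DESeq2 5 were, where 3.51% of all genes tested were past it. Of the fibroblast or endothelium markers the 3 collagen genes Col1a1, Col1a2 and Col3a1 were past it and higher in KO, whereas the endothelial genes Pecam1 (51 and 63 against 70 and 124 counts) and Cdh5 (1 and 6 against 1 and 1) were not. Dendritic cell markers summed to 58.7 and 101 CPM in WT and 224 and 122 CPM in KO, without overlap. With TMM scaling that gap lay mostly in Cd209a (7.78 and 16.3 against 126 and 23.4 CPM). Of the 4 dendritic cell genes tested 3 were higher in KO and Itgax was lower (log2 fold change -0.22). B cell markers summed to 15.9 and 42.7 CPM against 4.69 and 14.9 CPM, also without overlap. With TMM scaling nearly all of that sum was Cd79b (18.2 and 44.8 against 2.27 and 12.7 CPM). Erythroid markers were highest in KO 2 (41.2 CPM, against 5.72 CPM or less elsewhere). In these bulk samples fewer cells of a type and less RNA per cell cannot be told apart.

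Histone cluster genes are transcribed mainly in S phase, when new chromatin needs histones in bulk. Their mRNAs have no introns and normally end in a conserved stem-loop instead of a poly(A) tail, which the stem-loop binding protein SLBP recognizes for processing, translation and decay. Some of these genes are also known to yield longer transcripts that run past the stem-loop and are polyadenylated, mostly in cells that have left the cell cycle, whereas replication-independent histone genes such as H3f3a and H3f3b make ordinary polyadenylated mRNAs throughout the cycle. Because the libraries were made from polyadenylated RNA, the values below are those of transcripts that such a selection retained, and the total pool of histone mRNA was not measured.

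The stem-loop was searched in the GENCODE M21 transcripts as a 6-base stem that begins with GG, a 4-base loop that begins with TT, and a 3′ arm that is the exact reverse complement of the first arm. It was found in 44 of the 70 members. Among the 48 members with at least 60 bases annotated after the stop codon 42 (87.5%) held it, against 86 of 21810 other protein-coding genes (0.394%). The sites of 9 members from all 5 histone types are shown because the results turn on these genes, with the stem arms in capitals and the loop and 5 flanking bases in lower case:
H1f2: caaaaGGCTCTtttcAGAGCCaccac
H1f4: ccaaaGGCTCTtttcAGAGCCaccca
Hist1h2ao: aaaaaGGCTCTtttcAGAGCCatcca
H2ac8: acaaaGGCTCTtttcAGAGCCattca
H2bu2: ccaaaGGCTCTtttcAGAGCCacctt
H3c6: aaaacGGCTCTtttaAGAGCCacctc
H4c9: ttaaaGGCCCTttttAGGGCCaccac
H4c4: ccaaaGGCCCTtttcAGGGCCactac
H4c3: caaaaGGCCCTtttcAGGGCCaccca

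These sites lie in the 3′ ends of the genes, on the plus strand at chr13:23739507-23739532 for H1f2, chr13:21810893-21810918 for Hist1h2ao, chr11:58949344-58949369 for H2bu2 and chr13:23581945-23581970 for H4c4. They lie on the minus strand at chr13:23621777-23621802 for H1f4, chr13:23570663-23570688 for H2ac8, chr13:23561898-23561923 for H3c6, chr13:22040961-22040986 for H4c9 and chr13:23698084-23698109 for H4c3. The stem differed by histone type. A single form, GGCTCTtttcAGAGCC, was held by 26 members (3 H1, 10 H2A, 8 H2B and 5 H3), and 7 more members of these types had the same stem with another loop. All 11 H4 members with a stem-loop had another stem, GGCCCT in 9 of them and GGTCCT in 2.

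Members whose annotated transcript continues past the stem-loop held 49.1% to 61.6% of the histone cluster counts. A longest transcript that ran on for more than 100 bases was annotated for 22 members, of which 15 held a polyadenylation signal (AATAAA or ATTAAA) and 10 were among the 15 members with the highest mean CPM. These 22 members took 61.6% and 49.1% of the histone cluster counts in WT 1 and WT 2, and 53.6% and 60% in KO 1 and KO 2. An equal number of members ended within 100 bases of the stem-loop, and they took 22.0%, 26.4%, 25.3% and 24.3%. For both classes the WT and KO shares overlapped. The classes also differed in shared sequence, with 23.3% of the 50-base windows found in another gene in the median member that runs on and 66.4% in the median member that ends at the stem-loop, and reads with several alignments were not counted; the part of this in the shares was not tested. Per kilobase of exon, which allows for the longer transcripts, the median level of a member was 1.03 CPM per kb in the class that runs on and 0.682 CPM per kb in the class that ends at the stem-loop. The 6 members with at least 60 bases after the stop codon and no stem-loop took 12.5%, 21.1%, 18.0% and 12.4% of the counts, nearly all of it on H2bc4 and H2bc21, which hold a polyadenylation signal. The last 20 members, with under 60 bases or nothing annotated after the stop codon, took 3.04% to 3.92%, and none of them was among the 15 highest.

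**Figure D1:**
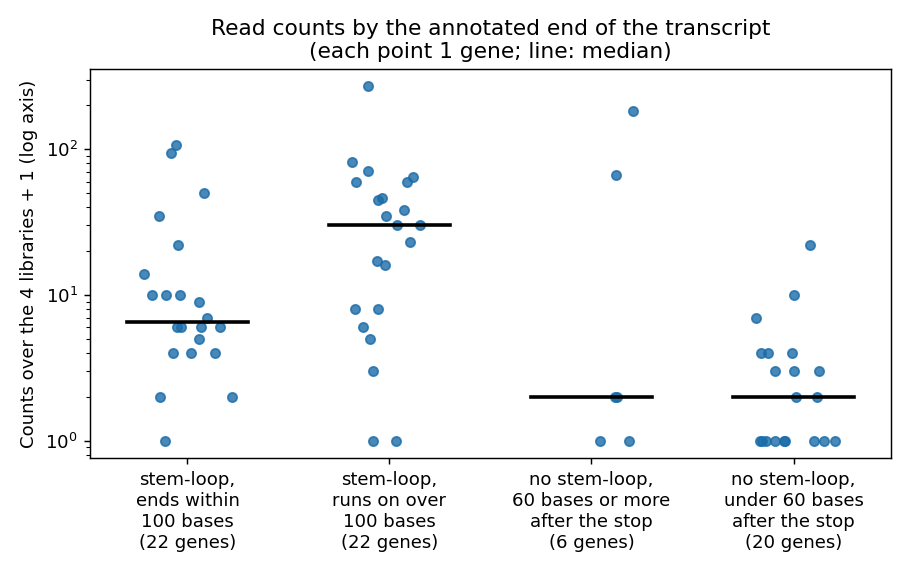
Read counts over the 4 libraries plus 1 (log axis) for each of the 70 members, grouped by the annotated end of the transcript, with a line at the median. The median member had 29 counts where the transcript runs on past the stem-loop and 5.5 where it ends there, and every class held members with few or no counts.

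Over the 4 libraries the members together had 1592 counts. A count was seen for 56 members in at least 1 library and for 29 in all 4, while 14 were at 0 throughout (1 H1, 7 H2A, 5 H2B, 1 H3 and no H4). Most were sparse, since 32 members had 1 to 9 counts in all and the 10 highest held 65.8% of the counts. A member at 0 may have had up to 0.557 to 0.747 CPM in a library, the limit that a count of 0 allows. Near-identical copies also bear on these values, because reads with several alignments (4.16% to 4.60% of reads) were not counted for any gene. In the median member 56.0% of the 50-base windows of the transcript also occurred in another gene, against 75.2% in the median of the 14 members at 0 and 30.6% in that of the 15 highest. H2ac18 and H2ac19 shared 100% of their windows with other genes, and all 49 counts of the pair were on H2ac19. The values of Hist1h2ao (93.5% shared), Hist1h2ap (93.1%), H2ac19 and H3c6 (73.4%) are therefore uncertain. At the protein level the 13 H4 genes encoded 1 identical protein, and 12 H3 genes encoded 3 and 18 H2A genes 9 distinct proteins, whereas the 6 H1 genes encoded 6.

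Linker histone genes were among the most abundant members. H1f2 (chr13:23738808-23740367, plus strand), which encodes the linker histone H1.2, had the highest mean CPM, with 31 and 50 counts in WT 1 and WT 2, and 53 and 135 in KO 1 and KO 2. The library KO 2 stood high and the others lay close together, so that the groups overlapped after scaling by trimmed mean of M-values (TMM). The level was 9.72 ± 2.84 CPM (SD, n = 2) in WT and 18.5 ± 9.37 CPM in KO (log2 fold change 0.63, SE 0.61, edgeR adjusted p = 0.680), and the fitted log2 fold change was -0.15 without KO 2. H1f4 (chr13:23620629-23622558, minus strand), which encodes H1.4, had 7 and 10 counts in WT and 15 and 49 in KO. Its groups did not overlap, but the difference was not past the threshold (log2 fold change 1.31, SE 0.87, edgeR adjusted p = 0.534), and the fitted log2 fold change was 0.27 without KO 2. H2bc6 (chr13:23583670-23621124, minus strand) overlaps the range of H1f4, so reads in the overlap cannot be assigned to 1 of them by position. H1f3, which encodes H1.3, had 3 and 4 counts in WT and 10 and 12 in KO, too few to be tested. H1f5 had 1 and 5 against 5 and 10 counts, and H1f6, a testis-specific H1 gene, was at 0.

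Among H2A genes, Hist1h2ao (chr13:21810465-21810944) and Hist1h2ap (chr13:21833026-21833507) had the highest levels, and per kilobase they were the 2 highest members (11.8 and 10 CPM per kb). Hist1h2ao had 9 and 33 counts in WT and 21 and 43 in KO, and Hist1h2ap had 5 and 19 in WT and 21 and 48 in KO. In both genes WT 1 had the fewest counts and KO 2 the most, and the groups overlapped after TMM scaling (log2 fold changes 0.07, SE 0.81, and 0.97, SE 0.87, edgeR adjusted p = 0.982 and 0.651), and that of Hist1h2ap ranged from 0.31 without KO 2 to 1.99 without WT 2. H2ac8 (chr13:23570517-23571220, minus strand) had 6 and 4 counts in the WT libraries and 16 and 33 in the KO libraries. Both KO libraries lay above both WT libraries, with 1.22 ± 0.392 CPM (SD, n = 2) in WT and 4.85 ± 1.81 CPM in KO. Its log2 fold change of 1.65 (SE 0.92, edgeR adjusted p = 0.457) was the largest among the members tested and was not past the threshold. H2ac8 passed the filter on low counts through its KO libraries alone. H2aw, the H2A gene of the Hist3 cluster, had 18 and 10 against 16 and 19 counts, and H2ac19 had 18 and 4 against 10 and 17 counts. Neither separated the groups (log2 fold changes -0.30, SE 0.83, and -0.37, SE 1.0, edgeR adjusted p = 0.904 and 0.900).

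H2bc4 (chr13:23684199-23692908, plus strand) was the second most abundant member and the highest H2B gene, with 24 and 49 counts in WT and 60 and 49 in KO. Its WT and KO libraries overlapped, at 8.74 ± 3.91 CPM (SD, n = 2) and 11.2 ± 3.03 CPM (log2 fold change 0.04, SE 0.61, edgeR adjusted p = 0.985). The annotated transcript of 1156 bases holds 742 bases after the stop codon, without a stem-loop and with a polyadenylation signal. The next H2B genes were H2bc21 of the Hist2 cluster, with 8 and 18 against 17 and 23 counts (log2 fold change 0.07, SE 0.82), and H2bu2 of the Hist3 cluster, with 5 and 11 against 17 and 12 counts (log2 fold change 0.32, SE 0.91). In each of these the groups overlapped and the edgeR adjusted p was at least 0.907.

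H3 genes had the fewest counts of the core histones. H3c4 (Hist1h3d) had 14 and 8 counts in WT and 6 and 9 in KO and was too low to be tested. H3c6 (Hist1h3e) had 10 and 3 counts in WT and 18 and 3 in KO, so that it was high in the libraries numbered 1 and low in those numbered 2 whatever the label (log2 fold change 0.09, SE 1.17, edgeR adjusted p = 0.983). H3c3, the next by level, had 1 and 1 against 5 and 2 counts.

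H4 genes encode 1 protein from 13 loci, and the 3 tested gave fitted changes of both signs, with none past the threshold. H4c9 (chr13:22040636-22041362, minus strand) had 10 and 7 counts in WT and 26 and 27 in KO, or 2.07 ± 0.598 CPM (SD, n = 2) and 5.41 ± 0.557 CPM. H4c3 (chr13:23697635-23698454, minus strand) had 14 and 12 counts in WT and 8 and 10 in KO, or 3.15 ± 0.472 CPM and 1.82 ± 0.0508 CPM. For both the groups did not overlap, and neither difference was past the threshold (log2 fold changes 1.03, SE 0.82, and -1.12, SE 0.88, edgeR adjusted p = 0.604 and 0.597). H4c3 passed the filter on low counts through its WT libraries alone. The difference between the loci was not tested. H4c4 had 6 and 17 against 18 and 18 counts (log2 fold change 0.11, SE 0.86, edgeR adjusted p = 0.972), and H4f16, the only gene of Hist4, had 8 and 6 against 2 and 6 counts.

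**Figure D2:**
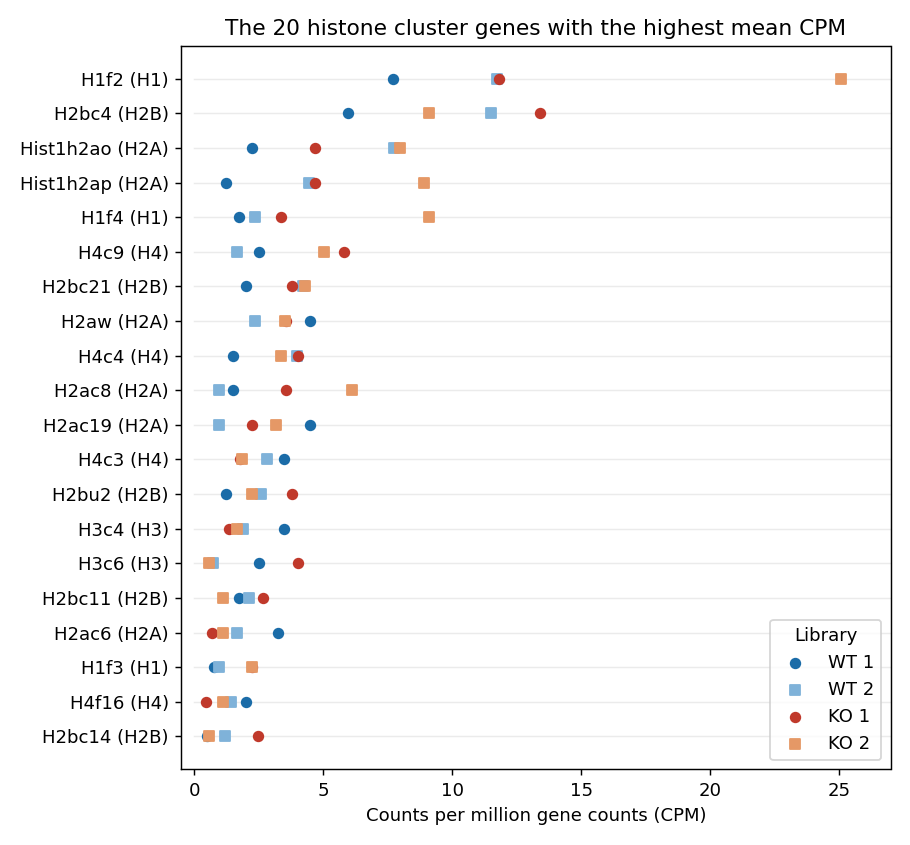
CPM in each library for the 20 members with the highest mean CPM, with WT libraries in blue and KO libraries in red or orange, circles for number 1 and squares for number 2. H1f2 in KO 2 stands highest at 25.1 CPM, and in CPM both KO libraries lie to the right of both WT libraries in H1f2, Hist1h2ap, H1f4, H4c9, H2ac8 and H1f3 and to the left in H4c3, H3c4, H2ac6 and H4f16, whereas H1f2 and Hist1h2ap overlap with TMM scaling.

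In the fit over all genes, 14 of the 70 members had enough counts to be tested and 0 of them passed the threshold of 0.05, where 68 of 11837 genes (0.574%) did. At an unadjusted p under 0.05 it was again 0 of 14 members (edgeR), where 13.7% of all genes tested fell, and DESeq2 also called 0. The fitted direction was higher in KO for 11 of the 14, against 52.6% of all genes tested, but for 9 of 17 without WT 1, against 53.5%, and for 8 of 16 without KO 1, against 50.1%. The groups did not overlap with KO higher for 3 (H1f4, H4c9 and H2ac8) and with KO lower for 1 (H4c3), where 25.3% and 22.6% of all genes did so, so that these counts lay near the background. The filter keeps a gene that reaches its minimum in any 2 libraries. H2ac8 reached it only in KO (3.57 and 6.13 CPM, against 1.49 and 0.939 CPM in WT). H4c3 reached it only in WT (3.48 and 2.82 CPM, against 1.79 and 1.86 CPM in KO). Both were thus tested only through the group in which they were high, so their separation is no support for a difference. The median log2 fold change of the members tested was 0.10, with a range from -1.12 to 1.65, and the median of all genes tested was 0.05. The members' median was 0.63 without WT 2 (19 members) and 0.30 without WT 1 (17 members), where all genes gave 0.12 and 0.07. Without KO 1 it was 0.0061 (16 members). The filter was rerun in these fits and kept more members than the 14, so the changed set and the missing library cannot be told apart. The fitted sign held under every alternative run for H1f4, H4c9, H2ac8, Hist1h2ap and H4c3, and changed under at least 1 alternative for the other 9. With a biological coefficient of variation of 42.5% within groups and counts of this size, differences such as that of H2ac8 could not be told from the spread between libraries.

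Summed over all 70 members, including those too low to test, the level in both KO libraries was above that in both WT libraries, narrowly so with TMM scaling. There were 255 and 322 counts in WT and 427 and 588 in KO, which correspond to 63.5 CPM (exact Clopper-Pearson 95% interval 55.9 to 71.8), 75.6 CPM (67.5 to 84.3), 95.3 CPM (86.5 to 105) and 109 CPM (101 to 118). Intervals cover counting error only. The means were 69.5 ± 8.56 CPM (SD, n = 2) in WT and 102 ± 9.84 CPM in KO, a ratio of 1.47, and no test was made, since the smallest p of an exact permutation test is 0.333 at this group size. The ratio depends on the scaling. On the log2 scale it was 0.56 with library totals and 0.23 with TMM-scaled library sizes, where the sums were 76.3 and 79.3 CPM in WT and 80.8 and 102 CPM in KO, and with plain totals the median log2 fold change of all genes tested was 0.38 against 0.05 with TMM.

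By histone type the difference in the sums was uneven. H1 genes summed to 10.5 and 16.4 CPM in WT and 18.5 and 38.6 CPM in KO, a ratio of group means of 2.13, which on the log2 scale was 1.09, and 0.46 without KO 2. With TMM the H1 groups overlapped, at 12.6 and 17.2 against 15.7 and 36.1 CPM. H2A genes summed to 18.2 and 19.5 against 22.1 and 32.3 CPM (ratio 1.45, log2 0.53, and 0.23 without KO 2). With TMM the H2A log2 ratio was 0.21, and the sum in KO 1 (18.7 CPM) lay below both WT libraries (21.8 and 20.5 CPM). H2B genes overlapped between the groups, with 13.4 and 23.7 against 31.3 and 20.8 CPM (ratio 1.40, log2 0.49). That log2 ratio was 0.16 with TMM and ranged from 0.14 without WT 1 to 0.95 without WT 2. The H3 genes also overlapped, at 8.96 and 3.75 CPM in WT and 8.26 and 3.53 CPM in KO (ratio 0.927), and their log2 ratio of -0.11 was -0.51 with TMM and ranged from -0.85 without KO 1 to 0.65 without WT 1. H4 genes had 12.4 and 12.2 against 15.2 and 13.9 CPM (ratio 1.18), and their log2 ratio of 0.24 became -0.10 with TMM scaling and -0.17 without H4c9. As a share of all histone cluster counts H1 took 16.5%, 21.7% and 19.4% in WT 1, WT 2 and KO 1 and 35.4% in KO 2, while the share of H4 lay between 12.8% and 19.6%. By cluster the ratio of group means was 1.58 for Hist1, 1.03 for Hist2, 1.23 for Hist3 and 0.459 for the single gene of Hist4, and with TMM it was 1.27, 0.811, 0.965 and 0.367, so that the directions of Hist2 and Hist3 turned. In CPM the ratio of Hist2 was also below 1 without WT 2 (0.877) or KO 2 (0.934), and that of Hist4 ran from 0.263 without KO 2 to 0.656 without KO 1. T cell, melanoma and collagen genes, given above, were higher in both KO libraries, macrophage markers were lower with TMM scaling, and erythroid markers stood high in KO 2 alone. Their part in these sums was not tested.

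**Figure D3:**
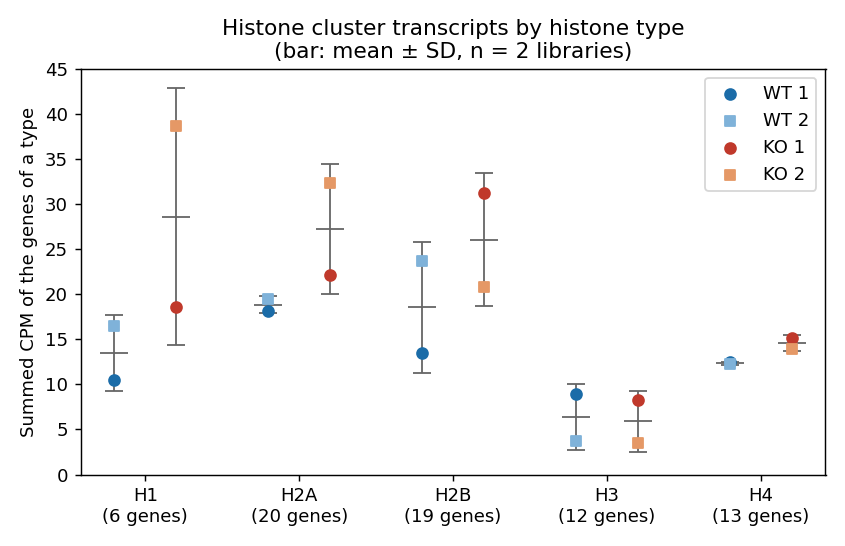
Summed CPM of the members of each histone type in each library, with the mean and SD of the 2 libraries of a group. In CPM, KO lies above WT without overlap for H1, H2A and H4 while H2B and H3 overlap, and the widest gap is that of H1 in KO 2, at 38.6 CPM, whereas with TMM scaling H1, H2A and H4 overlap too and the direction of H4 turns, to a log2 ratio of -0.10.

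The regions before the transcription start were compared because members of 1 type encode the same type of histone but differed in level. RefSeq (GRCm38.p6) held a promoter for 61 of the 70 members, from 250 bases before to 50 bases after the start, and 4 motifs were searched in them on both strands. The TATA sequence TATAAA was present in 57.4% of members, against 13.6% of the 32851 promoters in the table. CCAAT, bound by NF-Y, was present in 100% of the H1, H2A, H2B and H3 promoters and in 25% of the H4 promoters, against 37.4% of all. The octamer ATTTGCAT, bound by OCT1, was present in 7 of 17 H2A and 7 of 16 H2B promoters and in no other type, against 1.74% of all. GGTCCG, a part of the H4 subtype element, was present in 11 of 12 H4 promoters and in 1 H2B and 1 H3 promoter, against 8.25% of all. H2A and H2B genes lie back to back in 14 of the 15 divergent pairs found within 1000 bases, so that octamers of a pair can fall in both promoters. Matches of letters are a description and were not tested for binding.

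The 100 bases just before the start are shown for the 3 H4 genes described above for both abundant H1 genes and for H2bc8, which shares its divergent promoter with H2ac8, with the motifs in capitals:
H4c9: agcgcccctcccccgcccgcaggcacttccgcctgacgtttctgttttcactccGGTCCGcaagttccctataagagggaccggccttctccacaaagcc
H4c4: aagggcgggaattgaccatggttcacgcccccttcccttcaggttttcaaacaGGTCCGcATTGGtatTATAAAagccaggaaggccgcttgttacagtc
H4c3: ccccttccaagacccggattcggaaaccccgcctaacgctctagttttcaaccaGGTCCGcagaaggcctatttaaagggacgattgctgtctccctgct
H1f2: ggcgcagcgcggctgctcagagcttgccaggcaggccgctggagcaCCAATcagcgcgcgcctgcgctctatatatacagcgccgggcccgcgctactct
H1f4: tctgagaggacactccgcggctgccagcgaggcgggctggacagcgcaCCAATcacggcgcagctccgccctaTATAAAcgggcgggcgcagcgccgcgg
H2bc8: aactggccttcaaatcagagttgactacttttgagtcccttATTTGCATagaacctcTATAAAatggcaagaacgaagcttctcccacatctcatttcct

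These lie at chr13:22041363-22041462 (H4c9), chr13:23698459-23698558 (H4c3) and chr13:23622559-23622658 (H1f4) on the minus strand, and at chr13:23581468-23581567 (H4c4), chr13:23738707-23738806 (H1f2) and chr13:23571300-23571399 (H2bc8) on the plus strand. H4c9, H4c4 and H4c3 all held GGTCCG at a like distance from the start. Both H1 genes held CCAAT, and of these 6 genes only H2bc8 held the octamer in this stretch. Counts are given for the 2 divergent H2A/H2B pairs with at least 10 counts on both genes. H2ac6 had 13, 7, 3 and 6 counts where its partner H2bc4 had 24, 49, 60 and 49, in WT 1, WT 2 and both KO libraries in turn. H2ac8 had 6, 4, 16 and 33 counts where H2bc8 had 1, 4, 5 and 6. In the other 12 pairs at least 1 gene was under 10 counts.

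Several replication-independent histone genes, read in the same libraries, were more abundant per length than any cluster member, while others were not. H3f3b, which encodes the variant H3.3, had a mean level of 618 CPM per kb, H2az1 (H2A.Z) 232, H3f3a 124 and H2ax 53.0 CPM per kb, against 11.8 CPM per kb for the highest cluster member. On the same list Macroh2a2 had 1.35 and H1f10 0.097 CPM per kb. H3f3b had 7533 and 6502 counts in WT and 9547 and 9834 in KO, and its groups overlapped after scaling (log2 fold change -0.13, SE 0.51, edgeR adjusted p = 0.932). H2az1 had 786 and 1348 against 3592 and 1808 counts (log2 fold change 0.81, SE 0.53, edgeR adjusted p = 0.522), where KO 1 alone stood apart after scaling and the fitted log2 fold change was 0.14 without it. Of the 11 genes on the list 10 were tested, 5 in each direction and 0 past the threshold, with a median log2 fold change of -0.06 that became 0.28 with plain library totals. The histone cluster genes amounted to 2.06%, 2.56%, 2.11% and 3.44% of the counts on this list in WT 1 and 2 and KO 1 and 2, with overlap between the groups.

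Factors that act on histone mRNA had fitted changes of both signs, with 0 of 11 tested past the threshold in edgeR (4 at an unadjusted p under 0.05, against 13.7% of all genes). Casp8ap2 had the largest fitted change (log2 fold change 4.37, SE 1.13, edgeR adjusted p = 0.145), at 0 and 1.23 against 21.2 and 6.95 CPM with TMM. It was past the threshold in DESeq2, without a filter, and with a replicate or a crossed block. In these fits 3.51%, 2.74%, 1.82% and 5.47% of all genes were past it. Slbp, whose product binds the stem-loop, had 184 and 236 counts in WT and 714 and 569 in KO, so that both KO libraries were higher (log2 fold change 1.05, SE 0.42, edgeR adjusted p = 0.318). Npat, the coactivator of histone gene transcription, had 4 and 2 against 33 and 15 counts (log2 fold change 2.38, SE 1.02, edgeR adjusted p = 0.35). Lsm10, a subunit of the U7 particle that processes histone pre-mRNA, went the other way, with 292 and 251 against 161 and 250 counts (log2 fold change -1.01, SE 0.45, edgeR adjusted p = 0.366). Over the list 7 were higher and 4 lower in KO, with a median log2 fold change of 0.62. Histone chaperones, which carry histones to chromatin, had 12 of 16 higher, 0 past the threshold in edgeR (1 at an unadjusted p under 0.05, against 13.7% of all genes) and a median of 0.71, which was 0.25 without WT 1 and 0.16 without KO 1. Atrx was past the threshold in DESeq2, without a filter and with a crossed block, where 3.51%, 2.74% and 5.47% of all genes were, and not with a replicate block.

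Genes of DNA replication and of mitosis had larger ratios between the group sums than the histone cluster genes, and the difference between the lists was not tested. Of 24 S phase and DNA replication genes 21 were higher in KO, and 18 did not overlap with KO higher (25.3% of all genes) and 3 with KO lower (22.6%). Their summed level was 835 ± 359 CPM (SD, n = 2) in WT and 2211 ± 42.2 CPM in KO, a ratio of 2.65 (3.80 without WT 2), and their log2 fold changes had a median of 1.27, with 0 genes past the threshold (12 at an unadjusted p under 0.05 in edgeR, against 13.7% of all genes). That 0 depended on the fit, with 4 past the threshold in DESeq2, 6 without a filter and 5 without KO 2, where 3.51%, 2.74% and 9.72% of all genes tested were past it. All 13 G2 and mitosis genes were higher in both KO libraries, and 0 were past the threshold (12 at an unadjusted p under 0.05 in edgeR). Of these genes 4 passed in DESeq2, 6 without a filter, 1 without WT 1, 6 without WT 2 and 5 without KO 2, where the share of all genes was 0.862% without WT 1, 1.73% without WT 2 and otherwise as above. They summed to 66.2 and 277 CPM in WT and 870 and 725 CPM in KO. The ratio of group means was 4.65, with 2.88 without WT 1 and 12.1 without WT 2, and the median log2 fold change of 1.80 was 1.11 and 3.14 in these. Mki67, a marker of dividing cells, had 2 and 13 counts against 447 and 87 (log2 fold change 4.65, SE 0.98, edgeR adjusted p = 0.0788). It passed the threshold in DESeq2 (adjusted p = 2.27e-05), without a filter (edgeR adjusted p = 1.2e-08) and without WT 1, WT 2 or KO 2 (edgeR adjusted p = 0.0272, 0.00045 and 0.000829), and did not without KO 1 (0.152). In fits without 1 library the lone library of a group is assumed to vary like the other group. Pcna, the sliding clamp of DNA polymerase, had 460 and 504 against 1493 and 635 counts, where KO 1 alone stood apart after scaling (log2 fold change 0.59, SE 0.52, edgeR adjusted p = 0.649). The T cell, melanoma and collagen genes given above were higher in the same libraries, and their part in the S phase, G2 and mitosis values was not tested.

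Relative to the S phase genes of the same library, the histone cluster counts were lower in KO. They amounted to 10.9% of the S phase counts in WT 1 and 6.94% in WT 2, and to 4.37% in KO 1 and 4.88% in KO 2. Relative to the G2 and mitosis genes they amounted to 95.9% and 27.3% in WT and to 11% and 15.1% in KO. In both ratios the groups did not overlap, with the difference between WT libraries larger than that between KO libraries, and no test was made. Relative to the histone mRNA factors the ratio was 19.5%, 19.1%, 17.4% and 21.5%, and the groups overlapped. These ratios do not depend on how libraries are scaled.

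**Figure D4:**
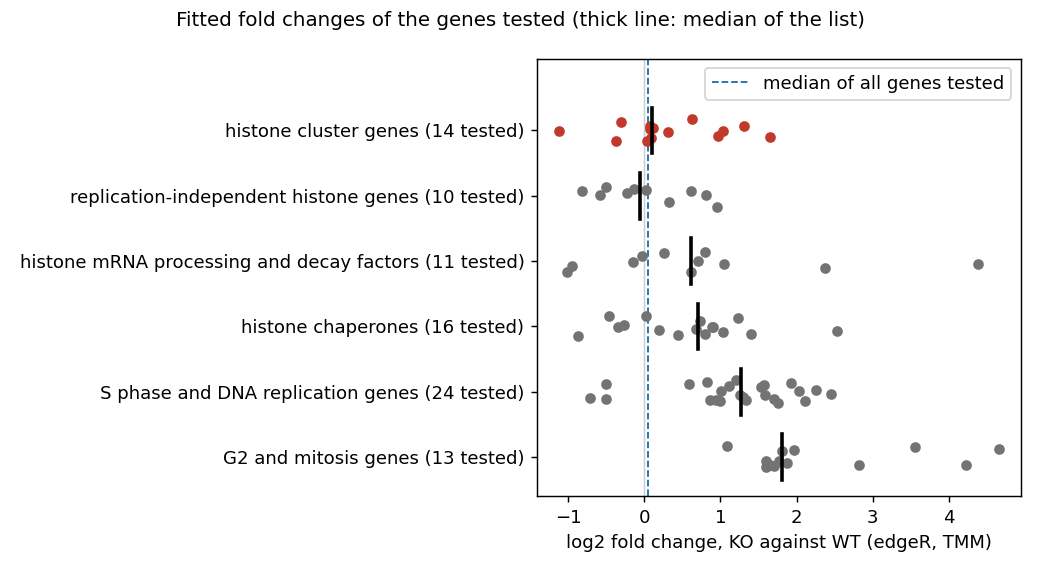
Fitted log2 fold change of KO against WT for each gene tested among the histone cluster genes and on 5 lists, with a thick line at the median of a list and a dashed line at the median of all genes tested. The histone cluster genes center at 0.10 and all genes at 0.05 (0.63, over 19 members, and 0.12 without WT 2), while the S phase and the G2 and mitosis genes center at 1.27 and 1.80.

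**Figure D5:**
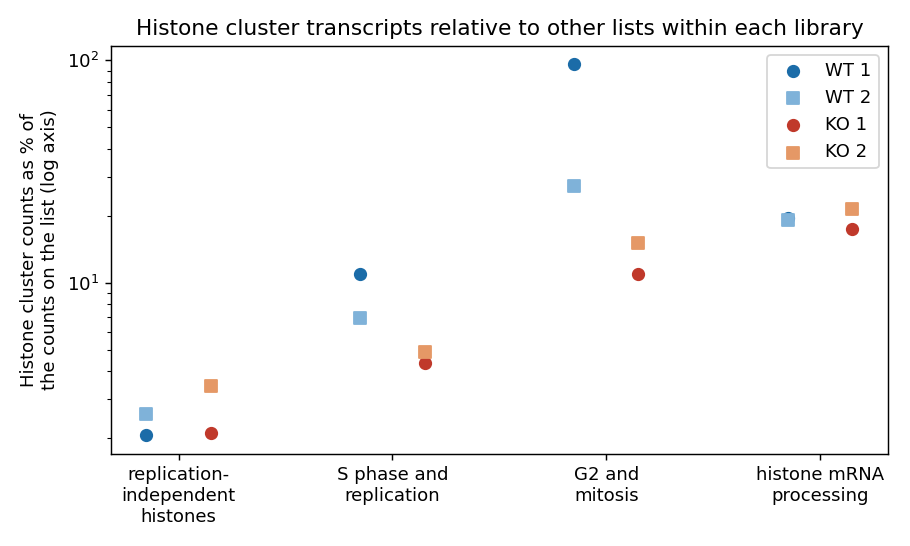
Histone cluster counts as a percent of the counts on 4 other lists in each library, on a log axis. The percent is lower in both KO libraries against the S phase list (4.37% and 4.88%) and the G2 and mitosis list, and overlaps between the groups against the replication-independent histone genes and the histone mRNA factors.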

How the data were processed

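RNA-seq read counts per gene were taken as deposited, 1 table per library for 2 WT and 2 KO libraries. Per the submitters' processing notes the authors aligned to mm10 with HISAT2 2.1.0 and counted with HTSeq 0.11.0. The annotation, strand setting and trimming were not given in the sources used here. The 5 HTSeq summary lines, 71.2% to 79.5% of reads, were left out of totals and tests. Such counting leaves out reads with several alignments, which can lower the values of near-identical genes, and the loss per gene was not measured.

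Members and gene lists were chosen with earlier results of these data known. CPM used the sum of gene rows. Genes kept by filterByExpr (minimum count 10, total 15) were compared by the quasi-likelihood F test of edgeR 4.0.16 in R 4.3.3 with TMM scaling and group as the only term, two-sided, with Benjamini-Hochberg adjustment over 11837 genes. The SE is the log2 fold change divided by the square root of F, and fold changes used a prior count of 0.125. The script was tested on simulated data. DESeq2 1.42.0, other scalings, no filter, a replicate block and leaving out each library were alternatives. The members named were the 15 highest by mean CPM, the 3 highest of each type and the 5 with the largest fitted change in each direction. From each list the 4 highest were eligible, with Slbp, Npat, Mki67, Pcna and Satb1. Other genes were chosen after their values were seen. Transcripts came from GENCODE M21 and promoters from RefSeq, both GRCm38. Plots used matplotlib 3.10.9 under Python 3.11.15.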

Additional observations from a re-analysis of the deposited data

How the results depend on the processing

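The number of histone cluster genes past the threshold was 0 under every alternative. Over all genes the number was 68 in the reported fit, 136 with plain library totals, 583 without a filter on low counts, 416 in DESeq2 and 113 to 1249 with 1 library left out. Without the filter 34 of 56 histone cluster genes with a count were higher in KO, with a median log2 fold change of 0.29, where 57.0% of all genes were higher with a median of 0.24. With the filter kept, the members' median was 0.46 with plain totals (14 members) and 0.0061 to 0.63 with 1 library left out (16 to 19 members). The value of 0.63 was reached without WT 2. With plain totals the list medians were 0.28 for replication-independent histone genes, which turned the direction, 0.94 for histone mRNA factors and 1.01 for chaperones. With 1 library left out the medians ranged from 0.31 to 0.68 for the mRNA factors, 0.16 to 0.89 for the chaperones and 1.11 to 3.14 for the G2 and mitosis genes. The log2 ratio of summed CPM of all members was 0.23 with TMM and 0.22 with DESeq2 size factors. For H2A it was 0.21 and 0.20, and for H4 -0.10 and -0.11, or -0.17 without the highest member. With 1 library left out it ranged from 0.46 to 1.52 for H1 and from 0.23 to 0.78 for H2A. The ratio of summed CPM turned with TMM for Hist2 (0.811) and Hist3 (0.965), an alternative chosen after seeing the data, as was leaving out libraries for the sums by cluster and by list. The cause was not tested.

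Of 126 refitted values of the 14 named members tested, 109 kept their direction and 17 turned. Plain totals gave log2 fold changes of 0.059 for H2aw, 0.0020 for H2ac19, 0.22 for H3f3b, 0.14 for H3f3a and 0.31 for Upf1, and no filter gave -0.0065 for Macroh2a1. With 1 library left out the sign turned for 9 members and 7 list genes. Leaving out WT 1 or WT 2 gave the ends of the range for H2bc4 (-0.34 to 0.41), Hist1h2ao (-0.55 to 1.04), H2bc21 (-0.35 to 0.54), H2aw (-0.81 to 0.30), H4c4 (-0.41 to 0.80), H2ac19 (-1.18 to 1.23), H2bu2 (-0.10 to 0.76), H3f3b (-0.41 to 0.076) and Macroh2a1 (-0.21 to 0.17). Leaving out KO 1 or KO 2 gave them for H1f2 (-0.15 to 1.11), H3f3a (-0.86 to 0.17), Upf1 (-0.22 to 0.11), Rbbp4 (-0.23 to 0.22) and Pcna (-0.25 to 1.07). H3c6 ranged from -1.77 without KO 1 to 1.29 without WT 1, and Cpsf3 from -0.14 without KO 2 to 0.68 without WT 2.

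Deviations of same-numbered libraries from their group means correlated at -0.18 over 11837 genes. With 2 libraries per group the crossed numbers give the same value with the opposite sign. Whether libraries were paired or shared a batch was therefore not settled. With a replicate block 215 genes and 0 histone cluster genes passed the threshold, H3c6 became -0.080, and Satb1, Mki67 and Top2a passed (edgeR adjusted p = 0.0435, 0.00384 and 0.0100), with 3 G2 and mitosis genes, 1 S phase gene and 1 histone mRNA factor past the threshold in all. A crossed block, chosen after seeing the data, called 647 genes, 0 histone cluster genes, 10 of 13 G2 and mitosis genes and 9 of 24 S phase genes.

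Depth limits these results, as 56 of the 70 members were too low to be tested and 3 counts were 0.557 to 0.747 CPM.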

Other observations

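Histone genes of the germ line and other minor histone genes outside the clusters, 30 in all, were mostly not detected in these libraries, with 26 at 0 throughout. H3f3c had 9 and 9 counts in WT and 12 and 2 in KO, H1f8, the oocyte linker histone, had 1 and 0 against 0 and 1, and H3f4 and H2al1m had 2 and 1 counts, all in KO 1. Within the clusters the testis genes H1f6, H2ac1 and H2bc1 were at 0.

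Among the divergent H2A/H2B pairs, Hist1h2ao and Hist1h2ap had 106 and 93 counts over the 4 libraries, while their partners Hist1h2bq and Hist1h2br had 0 each. The annotated windows of all 4 genes recur elsewhere in the clusters, and the part of shared sequence in this was not tested.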
